A study of Homo sapiens with 6 samples.

Results

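The transcription factor NRF2 (gene NFE2L2), its inhibitor KEAP1, the antioxidant genes NQO1, HMOX1, GCLC, GCLM and SRXN1, and the ferritin subunits FTL and FTH1 were followed in HGC-27 cells exposed to the peptide GLUP. These 9 genes were chosen by name for their place in the pathway and were found by symbol among the 62443 genes of the table. HGC-27 is an established human gastric cancer cell line. GLUP is a macrocyclic peptide, amidated at its C terminus and made to link TEAD4 molecules. It carries repeats of the element with which VGLL4 binds TEAD4. The results of the study describe its ring as closed by a disulfide, whereas the methods describe a head-to-side-chain cross-link. RNA was sequenced from 3 control libraries (Con) and 3 libraries of GLUP-treated cells. The labels give no treatment for Con, whereas the methods of the study name the stocking buffer of the peptide as the control. No genetic change is given for either group, and the study states the length of the treatment differently in its results and its methods.

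NRF2 is made continuously and is held at a low level by KEAP1, an adaptor that brings it to the CUL3 ubiquitin ligase for degradation. Oxidants and electrophiles modify cysteines of KEAP1, NRF2 then builds up in the nucleus, pairs with a small MAF protein and binds the antioxidant response element of genes for glutathione synthesis, quinone reduction, haem breakdown and iron storage. Much of this control acts on the NRF2 protein, which an mRNA level does not measure. Ferritin, a shell of heavy (FTH1) and light (FTL) chains, stores iron, and both chains are also controlled in translation by iron regulatory proteins that bind a hairpin at the 5′ end of their mRNA, the iron-responsive element.

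The regulatory elements for which such genes are known are shown first, as a description of the genes. The core of the antioxidant response element, TGACNNNGC on either strand, was searched in RefSeq windows (GRCh38.p14) that run from 250 bases before to 50 bases after a transcription start, for 7 of the 9 genes and without HMOX1 and FTH1. It was present in windows of GCLM and KEAP1, 2 of 9 windows (22.2%), and in 4687 of all 35116 windows (13.3%). For comparison, the cores of ME1 and TXNRD1, whose values are given further on, are included as genes with a match, and both have other matches too. The core was present for 12 of 25 other NRF2 target genes with a window. GSTM3 and AKR1C3, also named further on, had no match. The core is in capitals, each site reads 5′ to 3′ with 10 bases on either side, and the flanks of the KEAP1 sites overlap.
GCLM, chr1:93909446-93909474, plus strand: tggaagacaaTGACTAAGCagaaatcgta
KEAP1, chr19:10502807-10502835, minus strand: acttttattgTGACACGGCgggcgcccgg
KEAP1, chr19:10502784-10502812, plus strand: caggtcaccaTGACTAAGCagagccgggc
ME1, chr6:83431170-83431198, minus strand: tctcctgccaTGACTCAGCgcttctcgca
TXNRD1, chr12:104215670-104215698, plus strand: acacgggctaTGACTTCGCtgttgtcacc
The GCLM site lies 34 bases before the start and on the strand opposite to the gene, and the KEAP1 sites lie 54 and 31 bases before a start. No match was present in the windows of NFE2L2, NQO1, GCLC, FTL and SRXN1, which says only that these letters are not in these windows.

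Both ferritin mRNAs carry the iron-responsive element near their 5′ end. The motif CNNNNNCAGTG was found in the first 200 bases of 1416 of 19894 canonical protein-coding transcripts (7.12%). The sites of FTH1, FTL and the iron exporter ferroportin (SLC40A1) are given on GRCh37, with the unpaired C and the loop in capitals.
FTH1, chr11:61735046-61735075, minus strand: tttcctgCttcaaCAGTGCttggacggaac
FTL, chr19:49468591-49468620, plus strand: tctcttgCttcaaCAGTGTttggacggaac
SLC40A1, chr2:190445387-190445416, minus strand: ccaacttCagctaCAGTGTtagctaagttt
In the transcripts of the ferritin chains the sites span bases 32 to 61 of FTH1 and 26 to 55 of FTL.

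Values were deposited as FPKM (fragments scaled to gene length and to the mapped total of the library), which sum to between 909735 and 965147 per library, with 20061 to 21498 genes above 0. The number of reads is unknown, so no counting error can be given. The Con libraries differed in base composition. Over 7388 genes, the Spearman correlation of GC content with how far a library lay from the mean of each gene was -0.339, -0.595 and 0.452 in Con replicates 1, 2 and 3, and between 0.338 and 0.540 in the GLUP libraries, so that Con replicate 3 resembled the GLUP libraries and Con replicate 2 stood farthest from them. The 8 genes tested are therefore also given without either of these libraries, and the part of this difference in the results was not tested beyond those values and the GC-corrected ones, for which a smooth trend in GC content and length was subtracted from each library. Of the marker genes examined, VIM ranged from 222 to 387 FPKM, KRT8 from 1.05 to 2.30 and KRT18 from 0.917 to 2.51. EPCAM reached at most 0.124 FPKM and CDH1 0.0799, TFF1 and GKN1 of the gastric mucosa were at 0 throughout, and so was the T cell gene CD3E, while PTPRC reached at most 0.0394. Epithelial markers were thus near 0 or low in this line. KRT8, KRT18 and KRT19 were each above Con in all 3 GLUP libraries, as were 7.55% of all genes tested below. The matrix gene FN1 was below Con in all of them, as were 22.7% of those genes. CDH1, near 0 in Con and at 0 in every GLUP library, was also below, and VIM overlapped between the groups. The part of these markers in the results was not tested.

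GLUP was compared with Con by limma on log2(FPKM + 1) for the 7406 genes that averaged 1 FPKM or more, a scale on which changes at low levels come out smaller than they are. SRXN1 fell under this minimum and 8 of the 9 genes were tested. None of the 8 reached an adjusted p under 0.05, and neither did any gene of the whole table (0 of 7406, or 0%, with a smallest adjusted p of 0.0806). At an unadjusted p under 0.05, NFE2L2 and GCLC were lower and NQO1 was higher, compared with 1276 genes lower (17.2%) and 330 genes higher (4.46%) among all those tested. The GLUP values lay entirely below the Con values for NFE2L2, GCLC and GCLM, against 1682 of all genes (22.7%), and entirely above them for NQO1, against 559 (7.55%). The remaining 4 genes, KEAP1, HMOX1, FTL and FTH1, overlapped between the groups. The median log2 difference of the 8 genes was 0.11, with 4 positive and 4 negative, and that of all tested genes was -0.23. Rescaling of the libraries to a trimmed mean of log ratios moved the latter to -0.01 and the split at an unadjusted p under 0.05 to 755 genes higher and 654 lower, and GC correction gave 652 higher and 676 lower. The excess of lower genes in the whole table thus depended on the scaling. Under the trimmed mean NFE2L2 (-0.88), GCLC (-0.48) and NQO1 (1.55) kept an unadjusted p under 0.05, and KEAP1 (0.93) was added. After GC correction NFE2L2 and NQO1 kept it, GCLC did not, and HMOX1 was added on the lower side. Relative to the median of all genes as deposited, KEAP1 stood at 0.90, FTL at 1.46 and FTH1 at 1.04, and HMOX1, GCLC and GCLM stood at -0.22, -0.41 and -0.28. All 8 genes kept their sign on this scale.

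**Figure D1:**
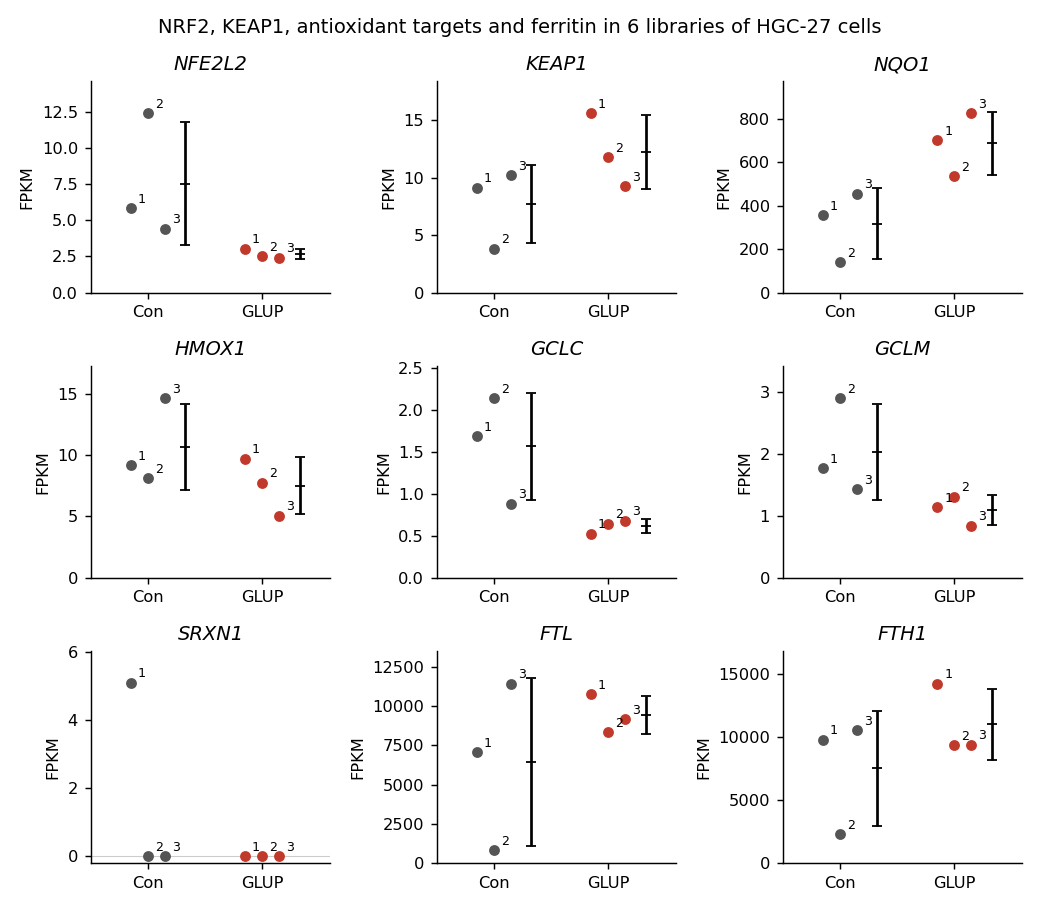
FPKM of the 9 genes (vertical axes, linear, 1 panel per gene) in the Con (grey) and GLUP (red) libraries, numbered by replicate, with the mean and SD of each group (n = 3) as black bars except for SRXN1, which was listed at 0 in 5 libraries. NFE2L2, GCLC and GCLM sit lower and NQO1 higher in every GLUP library than in any Con library, and Con replicate 2 is the lowest library for FTL and FTH1.

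NFE2L2 was lower in GLUP, and its inhibitor KEAP1 had a higher mean, with values that overlapped those of the controls. NFE2L2 (ENSG00000116044), on the minus strand of chr2:178083395-178257484 in GRCh37, was at 5.83, 12.4 and 4.41 FPKM in Con replicates 1, 2 and 3, and at 3.04, 2.52 and 2.41 FPKM in the GLUP libraries. The groups did not overlap, and the highest value, in Con replicate 2, was well above the other Con values. In bulk RNA, as here, fewer cells that express a gene and less of its RNA per cell cannot be told apart. Their means were 7.55 ± 4.26 and 2.65 ± 0.336 FPKM (SD, n = 3 each). The log2 difference was -1.12 with a standard error of 0.35 (limma adjusted p = 0.194), or -0.89 relative to the median of all genes. Leaving out Con replicate 2 gave -0.74, and leaving out Con replicate 3 gave -1.39, which passed the threshold (adjusted p = 0.0354). Without Con replicate 3, however, 1204 genes were called lower (16.3%) and 163 higher (2.2%), and the only other called genes of the 8 were GCLC, which was lower, and NQO1, which was higher.

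The transcript of NFE2L2 has a GC content of 42.1%. When genes were cut into 10 equal bins by GC content, 86.3% of the 739 genes in its bin had a lower mean in GLUP, with a median log2 difference of -0.45. The GC-corrected difference of NFE2L2 was -0.64 (adjusted p = 0.257). Part of the annotated span of NFE2L2 is shared with HNRNPA3, which lies on the opposite strand and encodes an RNA-binding protein. HNRNPA3 was at 11.6, 29.9 and 9.95 FPKM in Con and at 10.9, 10.6 and 8.29 in GLUP, so its highest value was also in Con replicate 2. Strand-specific counting is not stated, and reads of overlapping genes cannot then be told apart.

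KEAP1 (ENSG00000079999), on the minus strand of chr19:10596801-10614234, was at 9.13, 3.81 and 10.2 FPKM in Con and at 15.6, 11.8 and 9.26 FPKM in GLUP. The value of GLUP replicate 3 was under that of Con replicate 3, so the groups overlapped, and Con replicate 2 was the lowest of the 6. Means were 7.73 ± 3.43 and 12.2 ± 3.22 FPKM (SD, n = 3 each). The log2 difference of 0.67 (SE 0.38) had a limma adjusted p of 0.298, and it was 0.28 without Con replicate 2 and 0.89 with Con replicate 3 left out. KEAP1 is rich in GC (60.2%), and in its GC bin 27.7% of genes had a lower mean in GLUP, with a median of 0.31. The GC-corrected difference of KEAP1 was 0.39.

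The balance of factor and inhibitor was compared within each library, since FPKM is per length, although the genes differ in GC content. The log2 difference NFE2L2 minus KEAP1 was -0.57, 1.48 and -1.05 in Con and -2.04, -1.86 and -1.59 in GLUP. NFE2L2 exceeded KEAP1 in Con replicate 2 and in no other library. The means, -0.05 ± 1.34 and -1.83 ± 0.23 (SD, n = 3 each), differed by -1.78 with no overlap (two-sided exact permutation p = 0.1, the smallest that 3 against 3 libraries allow, and 0.2 adjusted over the 4 pairs compared). Without Con replicate 2 the difference was -1.02, and the GC-corrected one was -1.04.

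**Figure D2:**
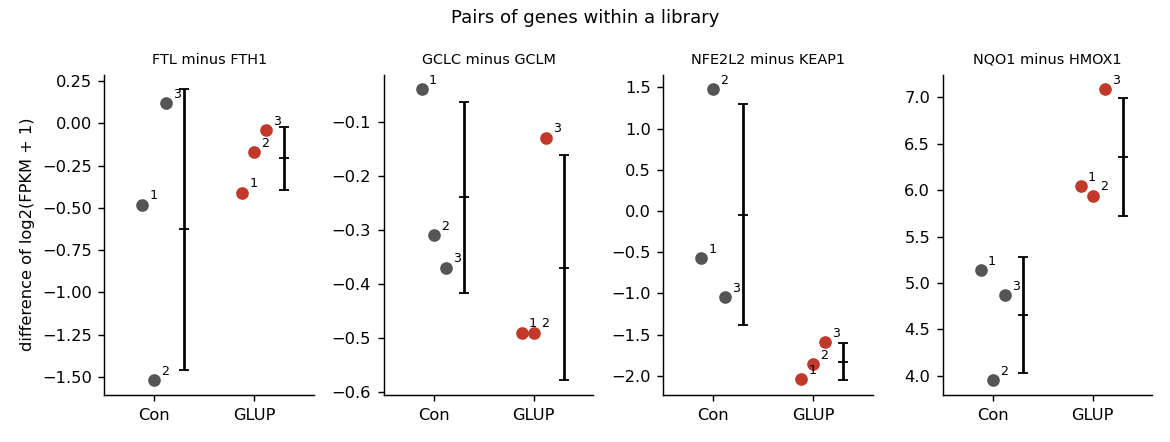
Difference of log2(FPKM + 1) between a pair of genes within each library (vertical axes, a scale of its own in each panel), for Con (grey) and GLUP (red) libraries numbered by replicate, with the mean and SD (black bars, n = 3). NFE2L2 minus KEAP1 is lower and NQO1 minus HMOX1 higher in all 3 GLUP libraries, whereas the ferritin pair and the pair of glutathione genes overlap.

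NQO1, a quinone reductase often used as a readout of NRF2 activity, was higher in every GLUP library, while HMOX1, which opens the haem ring and releases its iron, was not. NQO1 (ENSG00000181019), on the minus strand of chr16:69740899-69760571, was at 357, 140.0 and 455 FPKM in Con and at 701, 534 and 824 FPKM in GLUP. The lowest GLUP value lay above the highest Con value. Group means were 317 ± 161 and 687 ± 145 FPKM (SD, n = 3 each), a log2 difference of 1.25 (SE 0.43, limma adjusted p = 0.198) and of 1.48 relative to the median. With Con replicate 2 left out it was 0.75, and with Con replicate 3 left out it was 1.59 (adjusted p = 0.0469). NQO1 has a GC content of 43.8%, and in its GC bin 83.2% of 738 genes had a lower mean in GLUP, with a median of -0.41. NQO1 thus differed in the direction opposite to most genes of like base composition, and its GC-corrected value was 1.67 (adjusted p = 0.200).

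HMOX1 (ENSG00000100292), on the plus strand of chr22:35776354-35790207, was at 9.18, 8.12 and 14.6 FPKM in Con and at 9.68, 7.74 and 5.06 FPKM in GLUP. The groups overlapped, with the highest value in Con replicate 3 and the lowest in GLUP replicate 3. Means of 10.6 ± 3.46 and 7.50 ± 2.32 FPKM (SD, n = 3 each) gave a log2 difference of -0.45 (SE 0.33, limma adjusted p = 0.402). HMOX1 is GC rich (57.7%) and differed in sign from the median of its GC bin, 0.26. Its GC-corrected difference was -0.70 (adjusted p = 0.241), and it stood at -0.61 without Con replicate 2 and at -0.22 with Con replicate 3 left out.

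Within a library, NQO1 minus HMOX1 was 5.14, 3.95 and 4.87 on the log2 scale in Con and 6.04, 5.94 and 7.09 in GLUP. Every GLUP library showed a wider gap than any Con library. The means of 4.65 ± 0.62 and 6.35 ± 0.64 (SD, n = 3 each) differed by 1.70 (exact permutation p = 0.1, adjusted 0.2). Without each library in turn the difference ranged from 1.34 to 1.94, and the GC-corrected one was 2.37.

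Both subunits of glutamate-cysteine ligase, which makes the first intermediate of glutathione, were at low levels and lower still in GLUP. The catalytic subunit GCLC (ENSG00000001084), on the minus strand of chr6:53362139-53481768, was at 1.69, 2.14 and 0.882 FPKM in Con and at 0.526, 0.644 and 0.679 FPKM in GLUP. The groups were apart, although Con replicate 3 was closer to the GLUP libraries than to the other Con libraries. Means were 1.57 ± 0.636 and 0.617 ± 0.0800 FPKM (SD, n = 3 each), and the log2 difference was -0.64 (SE 0.24, limma adjusted p = 0.198). Without Con replicate 3 it was -0.85 (adjusted p = 0.0336), and without Con replicate 2 it was -0.48. With a GC content of 44.2%, GCLC was in the same GC bin as NQO1, and its GC-corrected difference was -0.24 (adjusted p = 0.423).

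The modifier subunit GCLM (ENSG00000023909), on the minus strand of chr1:94350755-94375012, was at 1.77, 2.90 and 1.43 FPKM in Con and at 1.14, 1.31 and 0.841 FPKM in GLUP. The groups were apart by a narrow margin, Con replicate 3 being just above GLUP replicate 2. Means of 2.03 ± 0.769 and 1.10 ± 0.235 FPKM (SD, n = 3 each) gave a log2 difference of -0.51 (SE 0.25, limma adjusted p = 0.255). It was -0.31 without Con replicate 2 and -0.65 with Con replicate 3 left out (adjusted p = 0.0888). GCLM has the lowest GC content of the 9 genes, 37.3%, and in its GC bin 93.2% of genes had a lower mean in GLUP, with a median of -0.61. Its GC-corrected difference turned to 0.07 (adjusted p = 0.860). The balance GCLC minus GCLM was -0.04, -0.31 and -0.37 in Con and -0.49, -0.49 and -0.13 in GLUP. It differed by -0.13 between the groups, which overlapped (exact permutation p = 0.5, adjusted 0.6). This value was -0.35 and -0.41 at pseudocounts of 0.1 and 0.01, -0.31 when GC-corrected, and between -0.25 and -0.03 when 1 library was left out.

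SRXN1, which encodes the enzyme that repairs overoxidized peroxiredoxins, could not be measured on its own. SRXN1 (ENSG00000271303), on the minus strand of chr20:627259-633844, was listed at 5.10 FPKM in Con replicate 1 and at 0 in the other 5 libraries. A protein-coding gene that overlaps it on the same strand, ENSG00000270299, showed the reverse, with 0 in Con replicate 1 and 3.66, 3.85, 3.06, 2.33 and 1.84 FPKM in Con replicates 2 and 3 and GLUP replicates 1, 2 and 3. In no library were both above 0. No fold is therefore given for SRXN1 by itself. The sum of the 2 rows, a measure chosen after the values were seen, was 5.10, 3.66 and 3.85 FPKM in Con (4.21 ± 0.783, SD, n = 3) and 3.06, 2.33 and 1.84 FPKM in GLUP (2.41 ± 0.616, SD, n = 3). The sums did not overlap, with a difference of -0.62 on the log2 scale (exact permutation p = 0.1, the smallest possible).

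**Figure D3:**
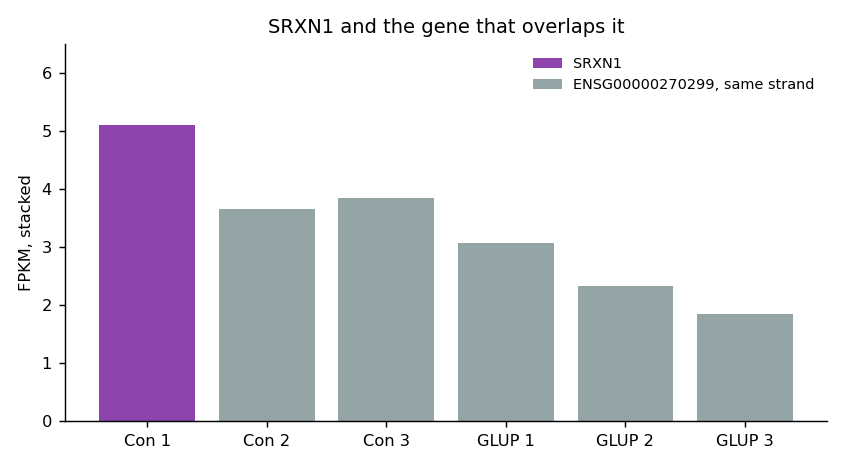
FPKM of SRXN1 (purple) and of ENSG00000270299, which overlaps it on the same strand (grey), stacked for each of the 6 libraries (vertical axis from 0). The value is in the SRXN1 row in Con replicate 1 and in the other row everywhere else, and the summed height runs from 1.84 to 5.10.

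The ferritin chains were among the most abundant transcripts of the cells, and their differences rested on Con replicate 2. FTH1 (ENSG00000167996), on the minus strand of chr11:61727190-61735106, was at 9814, 2278 and 10539 FPKM in Con and at 14261, 9378 and 9413 FPKM in GLUP. Apart from the low value of Con replicate 2, the groups overlapped. Means were 7544 ± 4575 and 11017 ± 2809 FPKM (SD, n = 3 each), with a log2 difference of 0.81 (SE 0.51, limma adjusted p = 0.334), which shrank to 0.09 without Con replicate 2 and was 1.19 when Con replicate 3 was left out. FTH1 held 0.247% to 1.52% of the FPKM total. Its rank was between 12 and 20 among all genes in 5 libraries and was 66 in Con replicate 2.

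FTL (ENSG00000087086), on the plus strand of chr19:49468566-49470136, was at 7059, 792 and 11436 FPKM in Con and at 10765, 8351 and 9165 FPKM in GLUP. The highest and the lowest value were both in Con. Its Con SD, 5350.0 FPKM around a mean of 6429 (n = 3), was several times the GLUP SD of 1228 around 9427 (n = 3). The log2 difference of 1.23 (SE 0.78, limma adjusted p = 0.336) shrank to 0.06 without Con replicate 2 and was 1.99 when Con replicate 3 was left out. FTL ranked between 14 and 22 in 5 libraries and 178 in Con replicate 2. The GC bins of FTL and FTH1 had medians of 0.11 and -0.22, on opposite sides of 0, and the GC-corrected differences were 1.08 for FTL and 0.91 for FTH1.

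Light chain was set against heavy chain within each library. FTL minus FTH1 was -0.48, -1.52 and 0.12 on the log2 scale in Con and -0.41, -0.17 and -0.04 in GLUP. In Con replicate 2 the light chain was lower relative to the heavy chain than anywhere else. The difference between the groups, 0.42, was within the spread of the controls (SD 0.83). It was -0.03 without Con replicate 2 and 0.17 when GC-corrected (exact permutation p = 0.6 with all libraries, adjusted 0.6).

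Ferritin has many processed pseudogenes, to which reads of the parent gene can be assigned. The 25 annotated pseudogenes of FTH1 summed to 145, 50.1 and 212 FPKM in Con and to 228, 286 and 226 FPKM in GLUP, or 1.48% to 3.05% of FTH1. The highest were FTH1P10, at 11.2 to 135 FPKM, and FTH1P7, at 10.7 to 50.6 FPKM. The 16 pseudogenes of FTL held 0.0539% to 0.170% of the value of FTL, nearly all of it in FTLP3. Adding these rows to the parents left the light to heavy difference at 0.42. BEST1, a chloride channel gene that overlaps FTH1 on the other strand, was at 167, 56.9 and 326 FPKM in Con and at 0.354, 296 and 263 FPKM in GLUP. BEST1 was thus almost empty in GLUP replicate 1, the library in which FTH1 was highest, and elsewhere reached 1.70% to 3.15% of FTH1. Its value cannot be told apart from reads of FTH1.

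**Figure D4:**
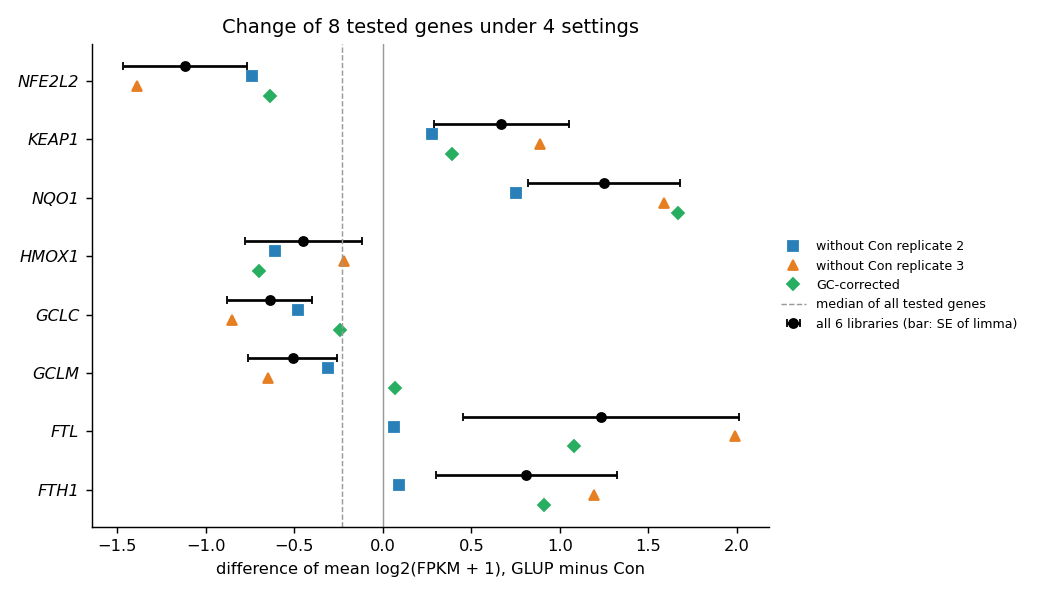
Difference of mean log2(FPKM + 1), GLUP minus Con (horizontal axis), for the 8 tested genes with all 6 libraries (black, bar: standard error of limma), without Con replicate 2 (blue squares), without Con replicate 3 (orange triangles) and GC-corrected (green diamonds, a trend in GC content and length removed). The dashed line is the median of all tested genes, -0.23, and FTL and FTH1 move to 0.06 and 0.09 without Con replicate 2, while NQO1 stays at 0.75 or above.

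The genes most like NFE2L2, NQO1 and FTH1 over the 6 libraries are named as a description, since the 6 points share the base composition of their libraries. For NFE2L2 they were CENPN (Pearson r = 0.998), COPRS (0.997) and ANP32B (0.996), and 1211 tested genes had an r over 0.9. For NQO1 they were the pseudogene ENSG00000225200 (0.997), DPF2 (0.997) and the pseudogene HNRNPCP2 (0.996), with 494 genes over 0.9. For FTH1 they were PPP1CA (0.998), COQ4 (0.998) and ASL (0.997), with 787 genes over 0.9. None of these 9 belongs to the pathway lists used here. CENPN shows the shared shape, with 99.1, 213 and 71.5 FPKM in Con and 48.6, 42.9 and 44.7 FPKM in GLUP.

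The wider pathway was read from 4 lists, none of which held a gene with an adjusted p under 0.05. Their counts are to be read against all 7406 tested genes, of which 17.2% were lower and 4.46% higher at an unadjusted p under 0.05, with a median of -0.23. Of 16 partners and regulators of NRF2, 8 were tested, none passed an unadjusted p of 0.05, and the median log2 difference was -0.32. The ligase scaffold CUL3 was at 2.91, 1.98 and 0.615 FPKM in Con and at 0.998, 0.698 and 0.523 FPKM in GLUP. Its difference of -0.62 (SE 0.32, limma adjusted p = 0.265) was -0.98 without Con replicate 3 (adjusted p = 0.0355) and -0.06 when GC-corrected. The related factor NFE2L1 (-0.33) and PARK7, a protein reported to stabilize NRF2 (-0.36), were below Con in every GLUP library, as were 22.7% of all tested genes. NFE2L1 was -0.16 under trimmed mean scaling, and PARK7 was -0.05 there and -0.06 when GC-corrected. SQSTM1, which binds KEAP1 and carries it to autophagy, was at 28.8, 15.7 and 28.0 FPKM in Con and at 17.8, 17.1 and 15.9 FPKM in GLUP, and the groups overlapped. Its difference of -0.45 was -0.16 under trimmed mean scaling and -0.72 without Con replicate 2.

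Of 34 other NRF2 target genes, 25 were tested, 6 were lower and 1 higher at an unadjusted p under 0.05 (17.2% and 4.46% of all tested genes), and the median was -0.09. The 4 with the smallest p were all lower. GSTM3, a glutathione S-transferase, was at 1081, 935 and 1009.7 FPKM in Con and at 255, 562 and 209 FPKM in GLUP, a log2 difference of -1.69 (SE 0.37, limma adjusted p = 0.194) that was -1.34 when GC-corrected. ME1, the cytosolic malic enzyme that yields NADPH and whose site is shown above, was at 11.3, 7.60 and 4.14 FPKM in Con and at 2.29, 2.40 and 2.21 FPKM in GLUP (log2 difference -1.31, adjusted p = 0.194, and -0.76 when GC-corrected). SLC7A11, the cystine importer that feeds glutathione synthesis, was at 2.37, 2.11 and 1.71 FPKM in Con and at 0.966, 0.842 and 0.885 FPKM in GLUP (-0.69, adjusted p = 0.194), and its GC-corrected difference was -0.08. The aldo-keto reductase AKR1C3 differed by -0.90 (adjusted p = 0.194). These 4 genes passed the adjusted threshold without Con replicate 3, with adjusted p of 0.0436 for GSTM3, 0.0285 for ME1, 0.0393 for SLC7A11 and 0.0285 for AKR1C3, in a setting that called 16.3% of all tested genes lower. In the other direction, GSTP1, another glutathione S-transferase, was at 1676, 359.6 and 2299 FPKM in Con and at 2601, 2484 and 3098 FPKM in GLUP (1.28, limma adjusted p = 0.229), and its difference was 0.47 without Con replicate 2. Thioredoxin reductase TXNRD1 was at 14.7, 46.9 and 23.5 FPKM in Con and at 16.5, 11.5 and 18.4 FPKM in GLUP, and its difference of -0.71 was -0.28 without Con replicate 2.

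**Figure D5:**
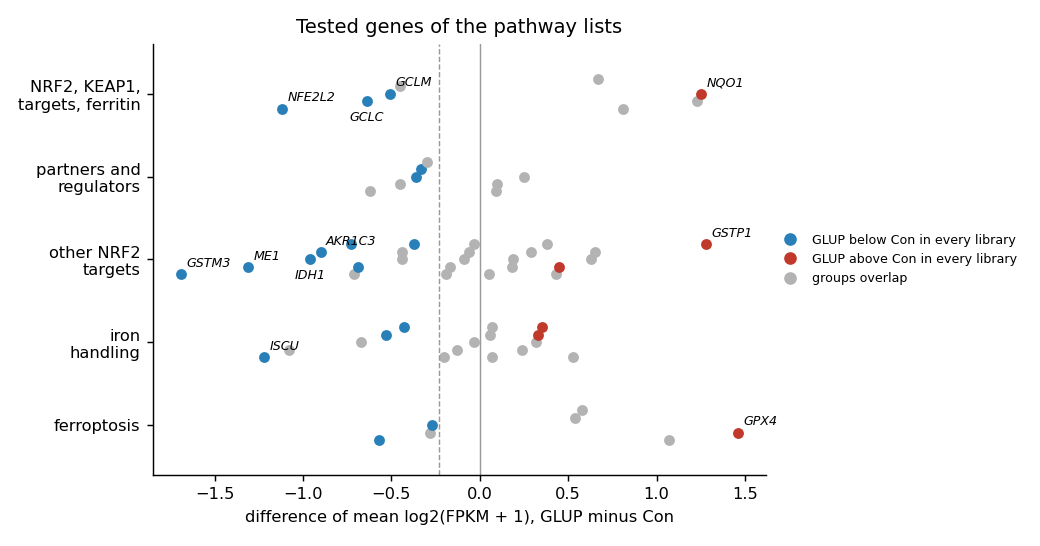
Difference of mean log2(FPKM + 1), GLUP minus Con (horizontal axis), of the tested genes of 5 groups (rows, points shifted vertically for legibility), coloured by whether the 3 GLUP values lay entirely below (blue), entirely above (red) or among the Con values (grey). The solid line is 0 and the dashed line the median of all tested genes, -0.23, and each of the 5 groups has genes on both sides of 0, from GSTM3 at -1.69 to GPX4 at 1.46.

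Among 24 genes of iron handling, 16 were tested, 2 were lower and none higher at an unadjusted p under 0.05 (17.2% and 4.46% of all tested genes), and the median was 0.02. ISCU, the scaffold of iron-sulfur cluster assembly, was at 60.6, 38.3 and 22.2 FPKM in Con and at 14.1, 15.9 and 16.6 FPKM in GLUP (-1.22, SE 0.38, limma adjusted p = 0.194), and passed the threshold without Con replicate 3 (-1.58, adjusted p = 0.0285). NCOA4, the receptor that takes ferritin to the lysosome, was at 4.57, 2.73 and 2.80 FPKM in Con and at 2.72, 1.53 and 1.79 FPKM in GLUP (-0.53, adjusted p = 0.272), and stood at -0.08 when GC-corrected. The haem transporter SLC48A1 differed by -0.67 (adjusted p = 0.289), or by -0.39 under trimmed mean scaling and by -0.83 when GC-corrected. Without Con replicate 2 the SLC48A1 difference was -0.96, and without GLUP replicate 3 it was -0.40. TFRC, the transferrin receptor, whose mRNA is also bound by the iron regulatory proteins, was at 2.48, 4.04 and 1.49 FPKM in Con and at 2.47, 2.49 and 1.75 FPKM in GLUP. Its difference of -0.13 (adjusted p = 0.794) became 0.09 under scaling by the trimmed mean, 0.08 under upper quartile scaling, 0.35 when GC-corrected, and 0.13 without Con replicate 2, so no direction is given. The mitochondrial ferritin FTMT was listed at 0 in every library.

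Ferroptosis, a form of cell death driven by lipid peroxides and iron, was read from 12 genes, of which 7 were tested, 1 was higher and none lower at an unadjusted p under 0.05 (4.46% and 17.2% of all tested genes), and the median was 0.54. GPX4, the glutathione peroxidase that removes lipid peroxides, was at 88.4, 31.4 and 182 FPKM in Con and at 246, 207 and 215 FPKM in GLUP. Its log2 difference of 1.46 (SE 0.53, limma adjusted p = 0.198) was 0.80 without Con replicate 2. It was 2.05 when Con replicate 3 was left out (adjusted p = 0.0314). SLC3A2, the partner chain of SLC7A11, was at 93.0, 20.2 and 160.3 FPKM in Con and at 185, 130.3 and 121 FPKM in GLUP, with overlapping groups and a difference of 1.07 that was 0.22 without Con replicate 2. The channel VDAC3 (-0.57, adjusted p = 0.284) and the reductase POR (0.54, adjusted p = 0.336) had the other small p values of this list. VDAC3 was -0.28 under trimmed mean scaling and -0.16 when GC-corrected, and POR was 0.24 when GC-corrected and 0.23 without Con replicate 2. Without Con replicate 3, the adjusted threshold was passed by 1 gene of the partners, 4 of the other targets, 1 of iron handling and 1 of ferroptosis, out of 8, 25, 16 and 7 tested. All but the gene of the ferroptosis list were lower, and in the same setting 16.3% of all tested genes were called lower and 2.2% higher.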

How the data were processed

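RNA of 3 Con and 3 GLUP samples of HGC-27 cells was analysed, grouped by the labels. The authors deposited 1 table of FPKM values, with 62492 rows. Their processing notes name HISAT2, Cufflinks and RSEM, with no versions or roles, and the build GRCh38.p10, whereas the gene identifiers carry the suffix of an annotation lifted to GRCh37. Coordinates, GC content and length were taken from GENCODE release 44 lifted to GRCh37, and promoter windows from RefSeq on GRCh38.p14. Rows of 49 pseudoautosomal copies, all at 0, were summed with their counterparts. Symbols matched 62162 of 62443 genes.

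Values were tested as log2(FPKM + 1) with limma 3.58.1 (lmFit, eBayes with trend) under R 4.3.3. Tests were two-sided, p-values were adjusted by Benjamini-Hochberg over the 7406 genes that averaged 1 FPKM or more, and the step was tested on simulated data. The plan was to take SRXN1 from a fit with no minimum, but it was listed at 0 in every GLUP library and no fold is given. Pairs were compared by exact permutation tests. Standard errors and p-values measure the spread between samples that the labels do not say came from separate cultures. No batch is given in the labels. Depth per sample is unknown, since FPKM holds no counts.

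The genes and lists were chosen with earlier results of these data known. The text names all 9 genes, the 4 genes of each list with the smallest p, TXNRD1, SLC7A11, GPX4, TFRC and SQSTM1 whatever their values, the 3 most similar genes of NFE2L2, NQO1 and FTH1, pseudogenes and overlapping genes. A few genes of the lists and markers are counted where counts are given but are not reported here by name. GSTP1, CENPN and further genes were named after their values were seen. Other settings were pseudocounts of 0.1 and 0.01, no minimum and minimums of 0.1 and 5 FPKM, 3 scalings, 2 forms of moderation, the replicate number as a block, GC correction (a loess curve over GC content and length, span 0.5, subtracted per library), and leaving out each library. Python 3.11.15 with pandas 2.3.3, numpy 2.4.6 and matplotlib 3.10.9 served for tables and figures.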

Additional observations from a re-analysis of the deposited data

How the results depend on the processing

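No gene was called with all 6 libraries, while 1606 had an unadjusted p under 0.05. A minimum of 5 FPKM, eBayes without trend, the replicate block, and GC correction together with the block each called 1 gene (809, 1608, 1513 and 1258 at an unadjusted p under 0.05), and GC correction alone called 2 (1328), none of them among the 9 genes or the lists. Leaving out 1 library gave between 0 and 1367 calls: 3 without Con replicate 2 and 1367 without Con replicate 3. Under this range NFE2L2 ran from -1.39 to -0.74, NQO1 from 0.75 to 1.59 and GCLC from -0.85 to -0.48 on the log2 scale, each past the threshold only without Con replicate 3. KEAP1 ran from 0.28 to 0.89, HMOX1 from -0.64 to -0.22, GCLM from -0.65 to -0.31, FTL from 0.06 to 1.99 and FTH1 from 0.09 to 1.19. GCLM turned to 0.07 after GC correction, both with the replicate block and without it. TFRC turned to 0.08 under upper quartile scaling, 0.09 under the trimmed mean and 0.35 after GC correction, again with or without the block, and ran from -0.38 to 0.13 when libraries were left out. FTL minus FTH1 ran from -0.03 to 0.80. The cause of these changes was not tested. The labels do not say whether replicate numbers pair the samples. Deviations of same-numbered samples from their group means correlated at 0.132, -0.0102 and -0.173, which cannot decide it with so few libraries. The block changed no call of the 9 genes. Signal near 1 FPKM limits GCLC and GCLM, and SRXN1 is limited by the gene that overlaps it on the same strand.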
